A study of Mus musculus with 9 samples.

Results

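The subunits of γ-secretase and the sheddases ADAM10 and ADAM17 were followed across sorted mouse bone marrow progenitors. Their members were the 7 genes Ncstn, Psen2, Psenen, Aph1a, Aph1b, Adam10 and Adam17, out of 18193 genes named singly on the array. They were read through every probe set (a group of short probes summarised as 1 value) that the array's annotation gives to 1 of these genes alone, which came to 17 of 45037 probe sets. One further probe set, 1429466_s_at, is annotated to both Aph1b and Aph1c and is given apart.

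γ-Secretase is a protease built into the membrane. A presenilin (Psen2 encodes one) holds the catalytic site, nicastrin (Ncstn) is the large glycoprotein whose ectodomain faces the substrate, Aph1a or Aph1b is the scaffold on which the complex assembles, and Pen-2 (Psenen) activates it. Its substrates, the Notch receptors among them, are first cut outside the membrane by a sheddase, ADAM10 for Notch bound to its ligand and ADAM17 for many cytokines and growth factors. γ-Secretase then cuts the stub that remains and, for Notch, frees the intracellular domain that enters the nucleus. In blood formation, Notch signalling is best known for directing progenitors to the T lineage.

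Messenger RNA was measured on 9 Affymetrix arrays in 3 groups of 3, all from mice 6 weeks old. LSK WT cells were lineage negative, cKit+ and Sca1+, the fraction that holds stem and multipotent progenitor cells. GMP WT and GMP NcstnKO cells were lineage negative, cKit+, Sca1-, CD34+ and FcgammaRII/III+, the gate of granulocyte-monocyte progenitors. All mice, the WT ones included, were Ncstn flox/flox, and NcstnKO littermates also carried Mx1-cre+, a Cre driven by a promoter that interferon switches on in blood cells and in other tissues. Every mouse received polyIC, which induces interferon, 3 times at 20 µg per g from an age of 14 days, and was analysed 4 weeks later. Since only the NcstnKO mice carry Cre, the transgene and the deletion cannot be told apart. The labels number the arrays as replicates without naming the animals, so p-values measure the spread between these arrays.

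The LSK and GMP markers separated the cell types, and the arrays also carried transcripts of other cells. The mean of 5 LSK markers was 10.5 to 11.1 (log2 intensity) on the LSK arrays and 7.02 to 7.59 on the 6 GMP arrays, and that of 4 GMP markers was 13.6 to 13.7 on GMP arrays and 12.7 to 13.0 on LSK arrays. Of the genes of the gate, Kit was 11.03 to 11.11 in WT GMP and 10.58 to 10.96 in NcstnKO. Cd34 was 12.04 to 12.23 and 11.57 to 11.99. Both were lower in NcstnKO without overlap, as were 12.3% of all probe sets. The 2 groups overlapped on Fcgr2b (11.76 to 11.93 in WT GMP and 11.70 to 11.94 in NcstnKO). They also overlapped on Fcgr3 (11.68 to 11.86 and 11.74 to 12.15). Although all cells were sorted as lineage negative, 6 of 6 late neutrophil markers were above the background limit on every array, with a mean of 12.8 to 13.3 on LSK arrays, 11.2 to 11.9 in WT GMP and 11.9 to 12.1 in NcstnKO. The transcripts of the sex chromosomes contradicted the labelled sex on 4 arrays. GMP WT replicates 2 and 3, labelled female, carried male transcripts, and GMP NcstnKO replicates 2 and 3, labelled male, carried female ones, so that by transcripts all 3 NcstnKO arrays were female and 2 of 3 WT GMP arrays male. By transcripts WT GMP replicates 1 to 3 were female, male and male, the sexes that the labels give to NcstnKO. NcstnKO was female throughout by transcripts, as WT GMP is by the labels. How this exchange of sexes arose was not tested. On the 4 arrays of contradictory sex Ncstn 1418570_at followed the genotype labels. The 3′ to 5′ log2 ratio of Actb control probe sets, a measure of RNA integrity and of amplification, was 0.75 ± 0.11 (SD, n = 3) for LSK, 0.58 ± 0.11 for GMP WT and 0.90 ± 0.14 for GMP NcstnKO, and the 2 GMP groups did not overlap. Median intensity was 98.3 to 103 on LSK arrays and 65.3 to 68.6 on GMP arrays. The median over all probe sets of the log2 difference between group means was -0.20 when WT GMP was set against LSK, and 0.04 when NcstnKO was set against WT GMP.

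Aph1a and Aph1b are paralogues that fill the same place in the complex, and in the values as deposited Aph1b but not Aph1a was called between LSK and WT GMP, so a promoter window of each gene is printed to set them side by side. Each sequence is the promoter window of 300 bases that the RefSeq table (build GRCm38.p6) gives for the gene, at chr3:95893671-95893970 on the plus strand for Aph1a and chr9:66795374-66795673 on the minus strand for Aph1b, whose RefSeq gene record also extends farther upstream than this window, and capitals mark GC boxes (GGGCGG or its reverse complement CCGCCC), which factors of the SP and KLF families bind.
Aph1a: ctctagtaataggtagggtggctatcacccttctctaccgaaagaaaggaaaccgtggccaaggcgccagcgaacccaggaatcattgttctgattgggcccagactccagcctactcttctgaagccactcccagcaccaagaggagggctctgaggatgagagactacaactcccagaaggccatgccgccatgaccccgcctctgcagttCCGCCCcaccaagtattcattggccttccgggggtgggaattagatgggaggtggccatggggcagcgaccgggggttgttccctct
Aph1b: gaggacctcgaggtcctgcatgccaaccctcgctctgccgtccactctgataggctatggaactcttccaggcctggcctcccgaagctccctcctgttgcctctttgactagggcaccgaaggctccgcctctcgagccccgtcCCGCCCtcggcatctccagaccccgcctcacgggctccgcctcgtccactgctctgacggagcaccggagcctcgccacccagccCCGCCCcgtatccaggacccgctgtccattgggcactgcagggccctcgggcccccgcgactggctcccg
The Aph1a window held 1 GC box and the Aph1b window 2, and 35.6% of 32817 promoter windows of 300 bases held at least 1. The CCAAT box (CCAAT or ATTGG) occurred 2 times in the Aph1a window and 1 time in that of Aph1b, and in 37.4% of all windows. The ETS motif CCGGAAG (or CTTCCGG) was found 1 time at Aph1a and was not found at Aph1b, with 8.86% of windows holding it. Neither window held the RUNX letters TGTGGT (or ACCACA; 16.8% of windows) or the GATA letters AGATAA (or TTATCT; 11.2% of windows). These matches describe letters and not binding.

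The loss of nicastrin message was the change among the members that set NcstnKO apart from WT GMP. Of the 17 probe sets 1 was lower and 0 were higher in NcstnKO at an adjusted p under 0.05, where 1.75% of all probe sets were called, 1.15% lower and 0.604% higher (limma, moderated test over all 45037, Benjamini-Hochberg). At an unadjusted p under 0.05 the number was 5, a count with no share of all probe sets to set beside it. In bulk RNA of sorted cells, fewer cells that make a transcript and less of it in each cell cannot be told apart.

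Ncstn probe set 1418570_at read 608, 636 and 613 (linear intensity) on the 3 WT GMP arrays, 221, 220 and 217 on the NcstnKO arrays, and 560, 520 and 508 on the LSK arrays. The knockout arrays lay together and far below all the others, with a gap of 1.46 on the log2 scale to the lowest WT GMP array. The log2 difference was -1.50 ± 0.080 (SE, n = 3 and 3; 95% interval -1.68 to -1.32; limma adjusted p = 0.00132). This was the smallest p of all 45037 probe sets, and by size the change ranked 194. The signal left in NcstnKO was 35.4% of that in WT GMP (95% interval 31.2 to 40.2%), and its log2 mean of 7.78 ± 0.016 (SD) stood above the background limits of 4.30 to 4.57. The call was lost, at a nearly unchanged size of -1.46, when the Actb ratio was a covariate (adjusted p = 0.184) and without the 4 arrays of contradictory sex, which leaves 1 array in each GMP group (adjusted p = 0.273), and no probe set of the array was called in either fit.

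The second Ncstn probe set, 1444532_at, did not show the loss. It read 112, 70 and 76 on WT GMP arrays and 78, 98 and 102 on NcstnKO arrays, so the groups overlapped. The log2 difference was 0.13 ± 0.19 (95% interval -0.31 to 0.57; limma adjusted p = 0.753), an interval that leaves out a fall as large as that of 1418570_at. Nothing in the files places either probe set inside or outside the floxed stretch of the gene.

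**Figure D1:**
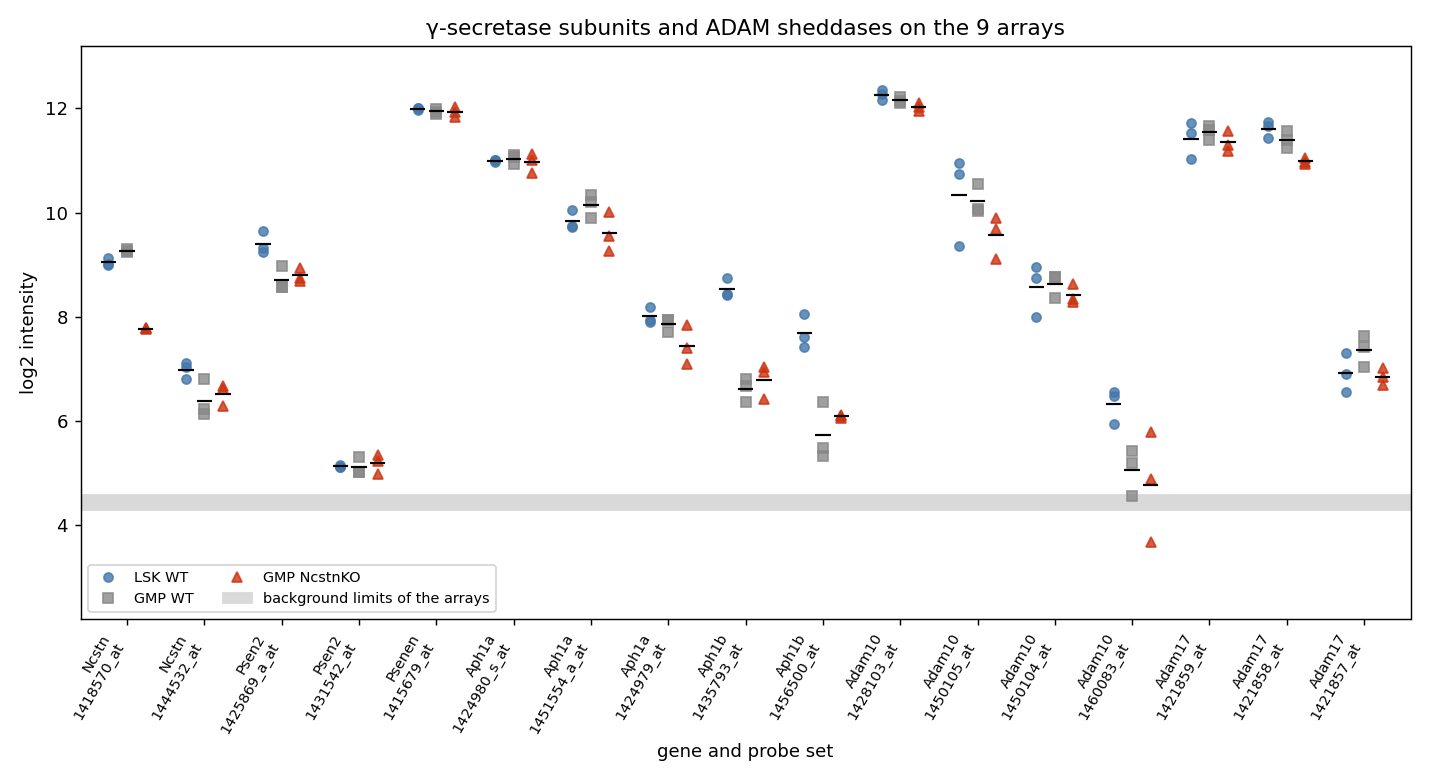
The log2 intensity (vertical axis) of the 17 probe sets of γ-secretase subunits and sheddases is shown for each of 3 arrays in LSK WT, GMP WT and GMP NcstnKO, with bars at the group means and a grey band over the background limits of the arrays. The NcstnKO arrays fall away from both WT groups at Ncstn 1418570_at, and both GMP groups lie below LSK at the 2 Aph1b probe sets.

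The other subunits did not pass the test between NcstnKO and WT GMP. Psen2 (1425869_a_at) had a log2 mean of 8.80 ± 0.13 (SD, n = 3) in NcstnKO and 8.71 ± 0.23 in WT GMP, a difference of 0.08 with a 95% interval of -0.26 to 0.43. Psenen read 3814, 3924 and 4080 on WT GMP arrays and 3647, 3918 and 4185 on NcstnKO arrays. Its interval, -0.20 to 0.18 around -0.01, was the narrowest among the subunits other than nicastrin.

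Of the scaffold genes, Aph1a gave different readings from its 3 probe sets. Probe set 1424980_s_at differed by -0.06 (95% interval -0.31 to 0.19). By contrast 1451554_a_at read 952, 1290 and 1174 on WT GMP arrays and 611, 1033 and 755 on NcstnKO arrays, with overlap, and its difference of -0.53 ± 0.20 (SE) missed the threshold (limma adjusted p = 0.193). Probe set 1424979_at differed by -0.42 ± 0.18 (limma adjusted p = 0.251). Adding the Actb ratio to the fit took the differences of these last 2 to 0.07 and 0.11, and since the 2 GMP groups do not overlap in that ratio, it and the genotype cannot be told apart here. Aph1b differed by 0.18 ± 0.19 (1435793_at; 95% interval -0.25 to 0.61) and 0.37 ± 0.27 (1456500_at; -0.23 to 0.97).

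The probe set shared by Aph1b and Aph1c read 153, 184 and 188 on WT GMP arrays, 341, 254 and 193 on NcstnKO arrays and 341, 293 and 229 on LSK arrays. The NcstnKO arrays lay just above WT GMP without overlap, and the difference of 0.56 ± 0.22 (SE) was not called (limma adjusted p = 0.211). Its fall from LSK to WT GMP, -0.71 ± 0.22, was called (limma adjusted p = 0.0373).

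Neither sheddase passed the test in NcstnKO. All 7 of their probe sets had negative differences, but they read only Adam10 and Adam17 on the same arrays, so their signs are not independent. The smallest p was that of Adam17 1421858_at, which read 2412, 2687 and 3023 on WT GMP arrays and 2015, 2133 and 1966 on NcstnKO arrays. The groups did not overlap, and the difference was -0.40 ± 0.12 (SE; 95% interval -0.67 to -0.14; limma adjusted p = 0.111, unadjusted 0.00795). With the Actb ratio as a covariate it was -0.17. The other Adam17 probe sets differed by -0.20 (1421859_at) and -0.51 (1421857_at; limma adjusted p = 0.231).

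Adam10 was measured most steadily by 1428103_at, which read 4796, 4394 and 4547 on WT GMP arrays and 3957, 4379 and 4197 on NcstnKO arrays. The difference was -0.13 (95% interval -0.34 to 0.07; limma adjusted p = 0.463), which leaves out a fall as large as that of Ncstn 1418570_at. The other 3 Adam10 probe sets differed by -0.65, -0.21 and -0.28, each with an interval that reached past 0. On 1460083_at, 1 of the 3 NcstnKO arrays lay below its background limit, the only such reading among the 17 probe sets.

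Over the 17 probe sets, 12 differences were negative and 5 positive, with a median of -0.20 beside 0.04 for all probe sets. NcstnKO lay below WT GMP without overlap on 5 of the 17 (29.4%), namely on Ncstn 1418570_at and on 2 probe sets each of Adam10 and Adam17, and above it on 0. Among all probe sets 27.2% had groups that did not overlap, and 12.3% had NcstnKO below. The Actb ratio did not overlap between the 2 GMP groups, so it and the genotype cannot be told apart in these readings.

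**Figure D2:**
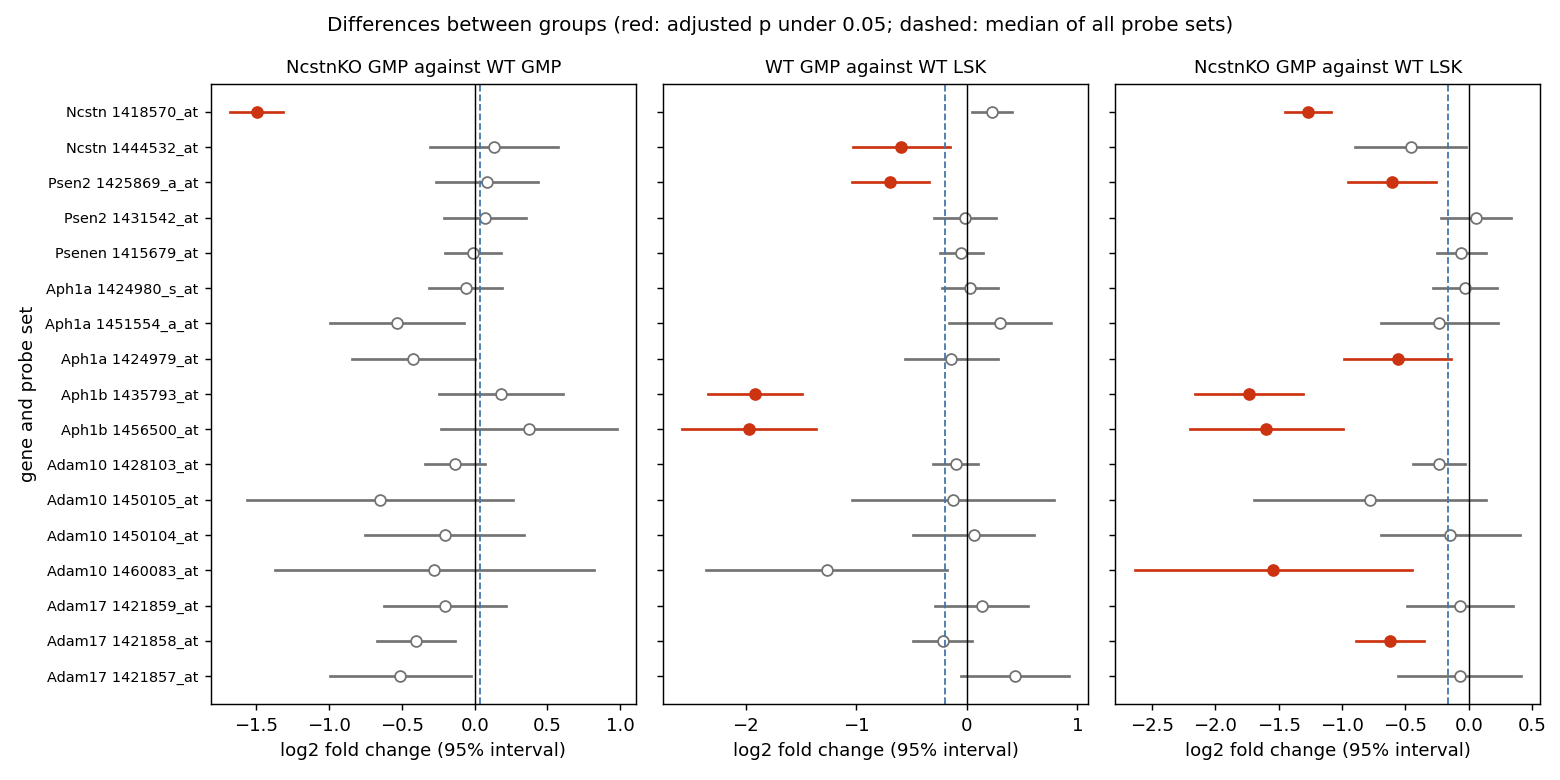
Log2 differences (horizontal axis, points with 95% intervals) of the 17 probe sets are shown for the 3 comparisons, in red where the adjusted p was under 0.05, with a dashed line at the median of all probe sets. Ncstn 1418570_at is the only called member between NcstnKO and WT GMP, and the 2 Aph1b probe sets, at -1.91 and -1.97, lie far left of the median of -0.20 between WT GMP and LSK.

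Between LSK and WT GMP, the scaffold Aph1b was the member that differed most. Aph1b 1435793_at read 348, 341 and 427 on LSK arrays and 102, 112 and 83 on WT GMP arrays, and 1456500_at read 195, 171 and 266 against 40, 82 and 45. All LSK arrays lay above all GMP arrays on both probe sets. The log2 differences were -1.91 ± 0.19 (SE; limma adjusted p = 0.000224) and -1.97 ± 0.27 (limma adjusted p = 0.000939), or 3.77-fold and 3.91-fold lower in WT GMP. Both calls held in all alternatives, where the differences ran from -2.11 to -1.39 and from -2.37 to -1.39. Over the 17 probe sets 4 were lower and 0 higher in WT GMP, against 34.9% of all probe sets called, so the members' share of 23.5% did not exceed the background. The 2 groups did not overlap on 5 of the 17 (29.4%), with WT GMP below on 4, where 51.8% of all probe sets did not overlap and 40.3% had WT GMP below.

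The catalytic subunit Psen2 was also lower in WT GMP, on 1 of its 2 probe sets. Probe set 1425869_a_at read 802, 611 and 637 on LSK arrays and 505, 383 and 382 on WT GMP arrays, without overlap, a difference of -0.69 ± 0.15 (SE; limma adjusted p = 0.00900). It was not called after quantile normalization (-0.31, adjusted p = 0.173), after centring on the 75th percentile (-0.35, adjusted p = 0.108) or without the 4 arrays of contradictory sex (-0.43, adjusted p = 0.271). The dimmer 1431542_at read 35 to 36 on LSK arrays and 32 to 39 on WT GMP arrays, a difference of -0.02 (95% interval -0.30 to 0.26).

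Nicastrin gave differences of opposite sign on its 2 probe sets between LSK and WT GMP. On 1418570_at WT GMP lay above LSK without overlap, by 0.23 ± 0.080 (SE; limma adjusted p = 0.0560), and by 0.62 and 0.57 after quantile normalization and centring (adjusted p = 0.00108 and 0.00121). On 1444532_at WT GMP was lower by a called -0.59 ± 0.19 (limma adjusted p = 0.0426) although the arrays overlapped, and by -0.02 after quantile normalization (adjusted p = 0.957). That call was also lost when any of LSK replicates 1, 2 and 3, WT GMP replicates 2 and 3 or NcstnKO replicates 2 and 3 was left out (differences -0.68 to -0.46, adjusted p = 0.0510 to 0.134), and with replicate number as a block (adjusted p = 0.0637).

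Psenen, Aph1a, Adam10 and Adam17 had no called probe set between LSK and WT GMP in the values as deposited. Psenen differed by -0.05 (95% interval -0.24 to 0.14) and the steadiest Adam10 probe set, 1428103_at, by -0.10 (-0.31 to 0.11). Adam17 1421857_at was higher in WT GMP by 0.44 ± 0.21 (SE; limma adjusted p = 0.145), and by 0.995 after quantile normalization (adjusted p = 0.00824) and 0.79 after centring (adjusted p = 0.0203). Adam10 1450105_at read 1708, 654 and 1972 on LSK arrays, so that LSK replicate 2 stood apart and its difference of -0.13 had an interval of -1.04 to 0.79.

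The direction of these calls depends on the scaling. LSK arrays had a higher log2 median than WT GMP arrays (6.62 to 6.68 beside 6.07 to 6.10). Their 75th percentile was also higher (9.47 to 9.51 beside 9.13 to 9.15). The background limits overlapped (4.37 to 4.46 and 4.30 to 4.39). As deposited, 2722 probe sets of the array were higher and 12988 lower in WT GMP, after quantile normalization 7912 and 5798, and after centring on the 75th percentile 12180 and 5830. The member calls went with this, from 0 higher and 4 lower as deposited to 2 and 2 after quantile normalization and 5 and 2 after centring. The 2 lower ones in both were the Aph1b probe sets.

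Against LSK, NcstnKO GMP showed both differences at once. Of the 17 probe sets 7 were lower and 0 higher, where 43.5% of all probe sets were called, 32.1% lower and 11.4% higher. NcstnKO lay below LSK without overlap on 9 (52.9%), where 54.3% of all probe sets did not overlap and 38% had NcstnKO below. This comparison shares its arrays with the other 2 and is given only beside them. Ncstn 1418570_at was lower by -1.27 ± 0.080 (SE; limma adjusted p = 2.63e-05), where WT GMP had been 0.23 higher. Aph1b was lower by -1.73 ± 0.19 and -1.60 ± 0.27, beside -1.91 and -1.97 in WT GMP. The calls again went with the scaling, with 1 member probe set higher and 4 lower after quantile normalization and 3 and 3 after centring, where over the array 11429 were higher and 8359 lower and 16932 and 7597. Psen2 1425869_a_at was lower by -0.61 ± 0.15 (limma adjusted p = 0.0121; -0.20 and adjusted p = 0.333 after quantile normalization; -0.23 and 0.241 after centring).

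The remaining calls against LSK were on Adam17, Adam10 and Aph1a. Adam17 1421858_at read 3252, 2772 and 3415 on LSK arrays, above all NcstnKO arrays, and was lower there by -0.62 ± 0.12 (SE; limma adjusted p = 0.00320), or by -0.24 after centring (adjusted p = 0.121). Adam10 1460083_at differed by -1.54 ± 0.48 (limma adjusted p = 0.0296) and was not called after either scaling, nor when LSK replicate 2 or 3 or NcstnKO replicate 2 or 3 was left out. Without NcstnKO replicate 3, the array below the background limit, its difference was -0.99. Aph1a 1424979_at differed by -0.56 ± 0.18 (limma adjusted p = 0.0367) and was not called when any 1 of 7 arrays was left out, with the replicate block (adjusted p = 0.0518) or after quantile normalization, where its sign turned, at 0.037 (adjusted p = 0.886). Adam10 1450105_at, uncalled at -0.78, was called at -1.28 without LSK replicate 2 (adjusted p = 0.00696).

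Proteins that work beside the complex and the sheddases were read in 4 lists. ADAM10 and ADAM17 leave the endoplasmic reticulum with partners, the TspanC8 tetraspanins for ADAM10 and the iRhoms (Rhbdf1 and Rhbdf2) with Frmd8 for ADAM17, are trimmed by proprotein convertases such as furin, and are inhibited by Timp proteins. Of 21 probe sets for 13 such genes, 2 were lower and 0 higher in NcstnKO than in WT GMP (median -0.33, all probe sets 0.04), or 9.52% lower beside 1.15% of all probe sets. These were the tetraspanin Tspan33 (1455618_x_at, -1.53 ± 0.29 (SE), limma adjusted p = 0.0457) and the inhibitor Timp3 (1419089_at, -1.03 ± 0.14, limma adjusted p = 0.0318). The other 3 Tspan33 probe sets differed by -1.30, -1.28 and -1.24 with adjusted p from 0.0681 to 0.0875.

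Both calls were lost in several fits, in those with only the 2 groups, with either sex covariate, with the Actb ratio, with the replicate block and without the 4 arrays of contradictory sex. They were also lost without LSK replicate 1, WT GMP replicate 1 or 3, or NcstnKO replicate 2 or 3. Tspan33 is known from erythroid cells, and the mean of 6 erythroid markers, all above the background limit on every array, was 9.55 to 10.8 (log2) in WT GMP and 8.07 to 8.99 in NcstnKO. Timp3 is made by many cell types, and the mean of 3 stromal markers was 4.70 to 6.90 in WT GMP, with 2 above the limit on all arrays, and 4.34 to 4.57 in NcstnKO, with 1 above. The part of such cells in either result was not tested.

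Between LSK and WT GMP, 13 of the 21 partner probe sets were lower and 1 was higher, beside 28.8% lower and 6.04% higher among all. Timp3 was lower on 4 probe sets, of which 1449334_at differed by -2.10 ± 0.66 (SE) and 1419089_at by -1.27 ± 0.14, while 1419088_at was not above background on any WT GMP array or on 1 LSK array. Also lower were Tspan33 on 3 probe sets (1455618_x_at by -1.59 ± 0.29) and iRhom1 (Rhbdf1) by -1.56 ± 0.26. Tspan17, a further TspanC8 member, was lower on 2 probe sets, by -1.04 and -0.56. The one higher was Tspan5 1431530_a_at, by 0.48 ± 0.13. The brighter Tspan5 probe set, 1417179_at, differed by -0.05 with overlap and was not called (limma adjusted p = 0.814). The erythroid markers averaged 11.2 to 11.5 and the stromal ones 6.68 to 9.07 on LSK arrays. The number of called partner probe sets was 8 after quantile normalization, 9 after centring and 8 with the Actb ratio, where it was 14 as deposited.

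The other ADAM proteases, 14 probe sets for 7 genes, had no call between NcstnKO and WT GMP, and 0 passed an unadjusted p under 0.05. The smallest p belonged to Adam15 (1425170_a_at, -0.37, limma adjusted p = 0.261). Between LSK and WT GMP 6 were lower (42.9%, beside 28.8% of all probe sets) and 1 was higher (beside 6.04% of all). Adam19 was lower by -2.63 ± 0.28 (SE; 1418402_at) and -2.20 ± 0.32, and Adam8, a protease of leukocytes, by -2.52 ± 0.37. The late neutrophil markers given above were higher on LSK arrays too, and so was the mean of 4 B cell markers, all above the limit on every LSK and WT GMP array (8.62 to 9.22 in LSK and 6.74 to 7.10 in WT GMP). The part of such cells in these falls was not tested. Adam12 (1421172_at) was not above background on any WT GMP array and was at least 1.62-fold lower there (limma adjusted p = 0.00111), the bound being set against the background limit of each array. A second Adam12 probe set and the called one of Adam33 were below the limit on all arrays of both groups, and the higher one was Adam15 (1454206_a_at, 0.39).

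The third list held other proteases that cut within membranes and the β-secretases, 30 probe sets for 11 genes. In NcstnKO 1 was lower than in WT GMP (3.33%, beside 1.15% of all probe sets) and 0 were higher. It was signal peptide peptidase (H13, also called Hm13; 1455631_at, -1.13 ± 0.099 (SE), limma adjusted p = 0.0199), an aspartyl protease of the presenilin type, whose signal was at or below the background limit on 2 of the 3 NcstnKO arrays. Its other 5 probe sets differed by -0.43 to -0.04 and were not called. The call on 1455631_at was lost without WT GMP replicate 1 or 3 or NcstnKO replicate 2 or 3.

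In WT GMP against LSK, 4 probe sets of this list were higher, where 6.04% of all probe sets were. The lower ones were 5 (16.7%, beside 28.8% of all probe sets). Of the 5, the one of Rhbdl2 was below the background limit on all arrays of both groups. Bace1, the β-secretase that makes the alternative first cut in the amyloid precursor, was higher on 2 probe sets by 1.34 ± 0.11 (SE; 1455826_a_at) and 1.04 ± 0.17, and at least 1.86-fold on another (1450384_at) that was not above background on LSK arrays. A well measured Bace1 probe set, 1421825_at, differed by 0.57 ± 0.27 and was not called (limma adjusted p = 0.128). Parl, the rhomboid protease of mitochondria, was higher by 0.58 ± 0.093. The rhomboid Rhbdl3 was lower by -2.79 ± 0.58 (1435941_at) and -1.11 ± 0.13, and H13 by -1.23 and -0.78 on 2 of its 6 probe sets.

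Proteins that bind γ-secretase or control its traffic, 14 probe sets for 9 genes, had no call between NcstnKO and WT GMP. At an unadjusted p under 0.05 4 passed, again with no share of all probe sets to set beside it. The smallest p was that of Tmed10, a cargo receptor of the early secretory pathway (-0.43 ± 0.10 (SE), limma adjusted p = 0.0721). In WT GMP against LSK 7 were lower (50%, beside 28.8% of all probe sets) and 0 higher. The γ-secretase activating protein Gsap was lower by -1.31 ± 0.14 (1435596_at) and on both of its dimmer probe sets, Ifitm3 by -0.99 ± 0.12, and the β-arrestins Arrb1 by -0.80 ± 0.12 and Arrb2 by -0.57 ± 0.11 and -0.41 ± 0.14. Against LSK, NcstnKO GMP gave 1 higher and 15 lower for the sheddase partners, 1 and 6 for the ADAM proteases, 5 and 10 for the intramembrane list and 0 and 7 for this one, beside 11.4% higher and 32.1% lower among all probe sets as deposited.

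**Figure D3:**
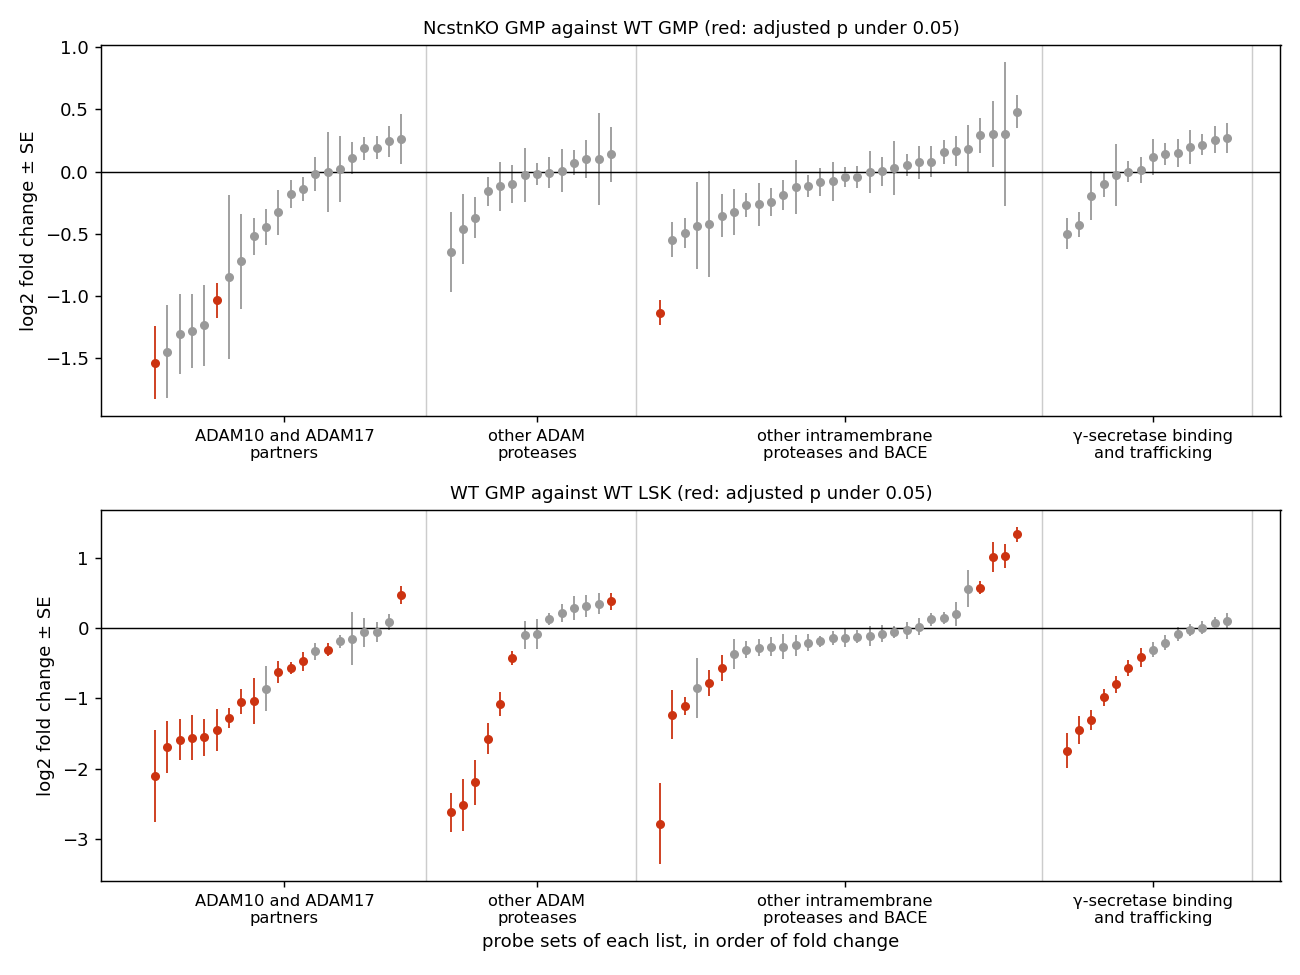
Log2 differences with SE (vertical axis) of the 79 probe sets of the 4 lists are ordered within each list, above for NcstnKO against WT GMP and below for WT GMP against LSK, in red where the adjusted p was under 0.05. The upper panel holds 3 called probe sets, all lower, and the lower panel 31 lower and 6 higher.

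The probe sets whose profile over the 9 arrays lay nearest to that of Ncstn 1418570_at were taken from 26743 with 1 gene and a mean above background, by the root mean square difference of profiles centred on their own mean. The nearest was H13 1455631_at (0.21 on the log2 scale, Pearson r 0.95 over 9 arrays), whose readings on 2 of the 3 NcstnKO arrays were at or below the background limit, so that its place and its difference rest on values at the floor. It was followed by Ago2 1435636_at (0.23), Usp24 1452868_at (0.23), Dhtkd1 1457027_at (0.24) and Usp24 1448014_s_at (0.25). Ago2 encodes an Argonaute protein that carries microRNAs, Usp24 a deubiquitinase and Dhtkd1 a mitochondrial dehydrogenase. The 9 arrays fall into 3 groups, so a probe set that is low in NcstnKO and level elsewhere ranks near by construction. The NcstnKO minus WT GMP differences were -1.13 for H13, -1.03 for Ago2, -1.27 and -1.13 for Usp24 and -1.14 for Dhtkd1, beside -1.50 for Ncstn.

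**Figure D4:**
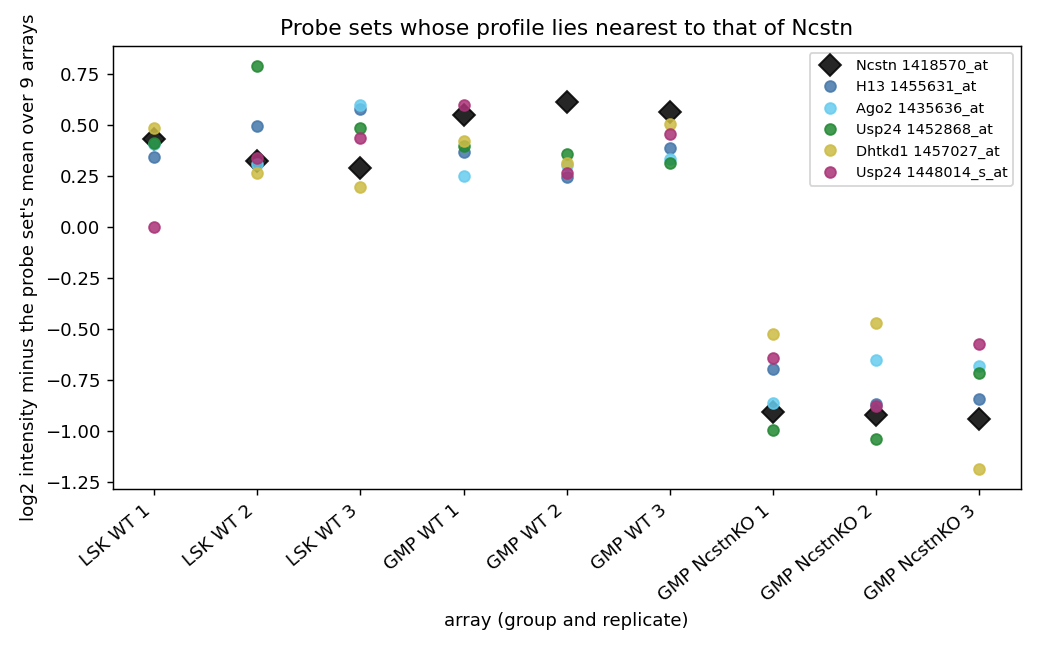
Log2 intensity minus each probe set's mean over 9 arrays (vertical axis) is shown per array for Ncstn 1418570_at (diamonds) and the 5 probe sets nearest to it (circles). All 6 lie below their mean on the 3 NcstnKO arrays, and on the 6 WT arrays all lie above it, except for Usp24 1448014_s_at on the first LSK array, which lies at about its mean.

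Among the other members, the nearest to that profile were Adam17 1421858_at (root mean square difference 0.46, r 0.81) and Aph1a 1424979_at (0.49, r 0.72), and the 2 Aph1b probe sets were the farthest at 0.94 and 1.01.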

How the data were processed

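The authors deposited 1 linear intensity for each probe set on each of 9 arrays. The submitters' processing notes name RMA, with no version, and per the labels' protocols 5 ng of total RNA was amplified and labelled with biotin. The sources used here do not say whether the 9 arrays were normalized together. As deposited, LSK and GMP arrays do not share 1 distribution (median intensity 98.3 to 103 and 65.3 to 68.6). They were thus not on a common quantile scale, and the comparisons with LSK depend on the scaling. Log2 was taken of the deposited intensities. Tests were run in R 4.3.3 with lmFit and eBayes of limma 3.58.1, fitting a mean for each of 3 groups (9 arrays, 6 residual degrees of freedom, p-values for either direction), on the 45037 probe sets left without 64 control probe sets. Calls were made at a Benjamini-Hochberg adjusted p under 0.05. The background limit of an array is the 95th percentile of its 27 unspiked bacterial controls. Of the probe sets, 34945 carry 1 symbol in GEO's annotation, 932 several and 9160 none. Precision is limited by the number of arrays.

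The members, the 4 lists and the limit were chosen with earlier results of these data known. Genes named are the members, up to 4 called genes of each list with the largest change (or the one with the smallest p), and the 5 probe sets nearest to Ncstn. Tspan5 and Adam15, the lone higher calls of their lists in WT GMP, were named after their values were seen. Lists are described by counts, with no set test. Aph1c has no probe set of its own and was not analysed in its list.

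Replicate numbers were checked for pairing by correlating deviations from group means. Same-numbered LSK and WT GMP arrays correlated at 0.25 to 0.30, and differently numbered ones at -0.17 to -0.090. Sex by transcripts also matched number by number in these groups (female, male and male). Same-numbered LSK and NcstnKO arrays correlated at -0.014 to 0.045, and WT and NcstnKO GMP at -0.028 to 0.032. A pairing of LSK with WT GMP arrays is thus possible, and the unpaired tests do not use it. No label states a pairing, and all tests given are unpaired, with the replicate block as an alternative that is printed where it changes a call.

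Data were simulated with the real means and spreads, and of 45037 probe sets 100 changed by 1 and 100 by 2 (log2). The fit recovered 51% of changes of 1 and 91% of changes of 2 for NcstnKO against WT GMP. It recovered 52% and 94% for WT GMP against LSK, and 60% and 91% for NcstnKO GMP against LSK. In the real comparisons with LSK far more were called, 15710 and 19575, which makes the adjusted threshold less strict. The simulation therefore does not measure recovery in those 2 comparisons. Alternatives were another scaling (quantiles, or centring on the 75th percentile), no dim probe sets (lowest 40%), 1 value per gene, only the groups compared, covariates for sex and for the Actb ratio, a replicate block, another variance model, and leaving out each array. Leaving out the 4 arrays of contradictory sex was added after the data were seen.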

Additional observations from a re-analysis of the deposited data

How the results depend on the processing

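Of 1008 refitted member values 858 kept their sign and side of the threshold, 79 changed sign uncalled, 20 gained a call, 47 lost one and 4 turned. Centring on the 75th percentile turned Psenen to 0.30 in WT GMP and 0.32 in NcstnKO GMP against LSK and Aph1a 1424980_s_at to 0.35 in NcstnKO GMP against LSK, by construction of the brighter LSK arrays, and quantile normalization turned Aph1a 1424979_at there to 0.037.

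For NcstnKO against WT GMP, the 1 called member became 0 with the Actb ratio and without the 4 arrays of contradictory sex, and leaving out each array gave 1 throughout. The sheddase partners went from 2 calls to 1 after quantile normalization and to 0 with only the 2 groups, label sex, transcript sex, the Actb ratio, the replicate block or without the 4 arrays (0 to 3 leaving out each array). The intramembrane list went from 1 to 0 without dim probe sets and in those same 6 fits, and to 3 with the other variance model (0 to 1 leaving out each array). The binding list went from 0 to 1 with the other variance model. Over all probe sets the count was 790, beside 498 after quantile normalization, 1367 without dim probe sets, 1415 with the other variance model, 9 with the replicate block, 4 and 1 with transcript and label sex, 2 with only the 2 groups, 0 with the Actb ratio or without the 4 arrays, and 1 to 285 leaving out each array. Centring gave 371 higher and 419 lower, where 272 and 518 were called as deposited.

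For WT GMP against LSK, members went from 4 to 7 after centring and to 2 without the 4 arrays (3 to 5 leaving out each array). Partners went from 14 to 8 after quantile normalization, 9 after centring, 8 with the Actb ratio and 1 without the 4 arrays. Other ADAM proteases went from 7 to 11 after centring, 4 without dim probe sets and 2 without the 4 arrays, the intramembrane list from 9 to 5 with the Actb ratio and 3 without the 4 arrays, and the binding list from 7 to 4 without dim probe sets and 2 without the 4 arrays. For NcstnKO GMP against LSK, without the 4 arrays members went from 7 to 4 (5 to 8 leaving out each array), partners from 16 to 8, the ADAM proteases from 7 to 4 (also 4 without dim probe sets), the intramembrane list from 15 to 4 and the binding list from 7 to 4. Member genes called went from 6 to 3 with the brightest probe set or the mean of a gene's probe sets. Without the 4 arrays 1 array is left in each GMP group, which is then assumed to vary like LSK, and over all probe sets 0, 3323 and 6315 were called in the 3 comparisons, beside 790, 15710 and 19575. Apart from the values given here and in the report, the replicate block changed no call on a member.

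In simulated data 51 to 60% of changes of 1 log2 unit were recovered with 3 arrays a group. Far fewer probe sets changed there than were called between LSK and either GMP group.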
